A study of Caenorhabditis elegans with 2 samples.

Results

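Binding of a tagged transcription factor was examined at bcat-1 and gdh-1, 2 of the 19973 protein-coding genes of Caenorhabditis elegans. Both encode enzymes that take the amino group off amino acids or move it. The genes were chosen by measured values of these samples: the signal and rank of regions near them, their distance, E-boxes and agreement of replicates were known when they were picked. Regions were assigned to them when the summit, the position of highest signal in a region, lay inside the gene or within 10 kb of its 5′ end. There was 1 group of samples, whole L3 larvae of both sexes pooled, in 2 biological replicates. The strain was OP355, which carries unc-119(tm4063) III and the transgene wgIs355. The antibody and strain labels give mdl-1 as the target and the free-text description gives an eGFP fusion of ZK337.2, so the protein is called the tagged factor here. The lists held 15898 regions in replicate 1, 30000 in replicate 2 and 30000 for both pooled. The 1015 regions called reproducible between replicates, by irreproducible discovery rate (IDR), were the 1015 of highest signal in the pooled list. Of these, 952 (93.8%) overlapped a region in both replicate lists, so not every one was listed in both. The lists do not give the number of reads, so the depth behind a value is unknown. No untagged or input library was analysed here, and signal from whole larvae cannot be assigned to a tissue.

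The branched-chain aminotransferase BCAT-1 starts the breakdown of leucine, isoleucine and valine by passing their amino group to 2-oxoglutarate, which yields glutamate. Glutamate dehydrogenase GDH-1 is a mitochondrial enzyme that converts glutamate back to 2-oxoglutarate and releases ammonia, so the product of the first enzyme is the substrate of the second. In C. elegans, lowering bcat-1 by RNA interference has been reported to lengthen life. Factors of the Myc, Mad and Max family, to which MDL-1 belongs, bind the E-box CACGTG.

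The finding concerns 3 stretches of sequence around summits of the IDR list, and the promoter of gdh-1 for contrast. Each is the plus strand of ce11 over the summit base and 100 bp on either side, read from the RefSeq assembly, and both genes lie on the plus strand. Capitals mark CACGTG. The first lies 4996 bp before the 5′ end of bcat-1 (chrX:12872384-12872584), the second 425 bp before it (chrX:12876955-12877155), the third 975 bp past the 3′ end of gdh-1 (chrIV:11956416-11956616) and the fourth 306 bp before the 5′ end of gdh-1 (chrIV:11952843-11953043).
bcat-1, distal: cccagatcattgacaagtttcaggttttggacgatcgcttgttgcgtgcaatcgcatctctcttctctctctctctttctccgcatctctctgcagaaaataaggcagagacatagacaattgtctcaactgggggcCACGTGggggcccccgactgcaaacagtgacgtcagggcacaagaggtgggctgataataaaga
bcat-1, promoter: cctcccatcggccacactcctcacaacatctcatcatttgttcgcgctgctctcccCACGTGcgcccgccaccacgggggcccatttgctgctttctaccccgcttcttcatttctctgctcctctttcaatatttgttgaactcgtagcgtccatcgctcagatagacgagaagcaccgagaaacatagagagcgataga
gdh-1, past the 3′ end: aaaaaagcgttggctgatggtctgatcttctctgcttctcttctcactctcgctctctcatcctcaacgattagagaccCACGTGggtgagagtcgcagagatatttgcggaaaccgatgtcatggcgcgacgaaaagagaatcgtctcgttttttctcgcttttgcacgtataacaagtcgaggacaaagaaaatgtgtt
gdh-1, promoter: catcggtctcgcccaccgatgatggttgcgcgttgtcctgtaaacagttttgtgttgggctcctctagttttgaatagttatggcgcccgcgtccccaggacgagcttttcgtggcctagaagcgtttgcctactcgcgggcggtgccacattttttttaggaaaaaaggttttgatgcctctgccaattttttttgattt

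The genes differed in where the signal lay. At bcat-1 (WBGene00001149, ce11 chromosome X, 12877480 to 12880328), 2 reproducible regions lay upstream, and the higher of them ranked 12 of the 1015 regions in the IDR list. At gdh-1 (WBGene00014095, chromosome IV, 11953249 to 11955541), no reproducible region lay in the gene or within 10 kb upstream of it. A region that ranked 10 lay just past its 3′ end, outside the span that assigned regions to gdh-1 but inside that of hdl-1. Since the genes were chosen with these values known, and there is 1 group of samples, the values are a description and no test was made.

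**Figure D1:**
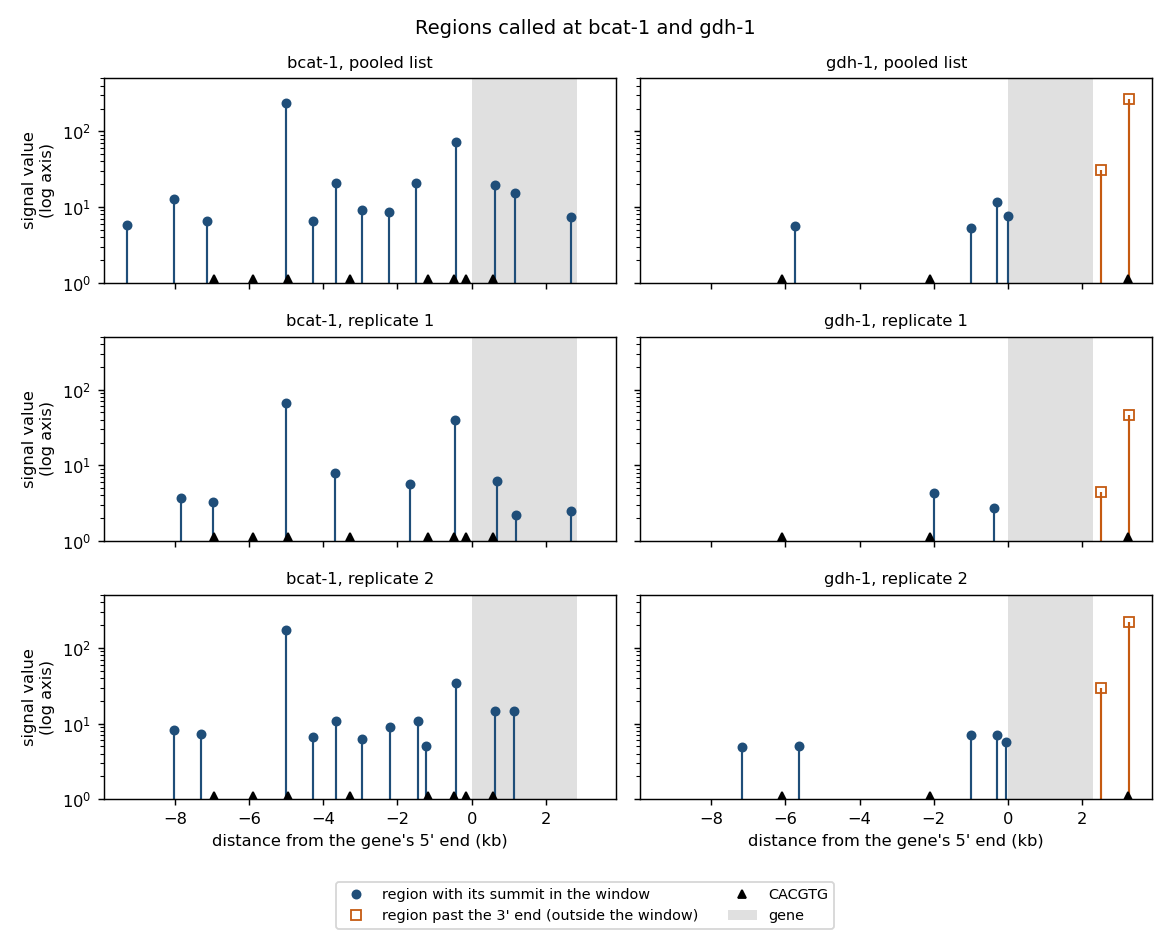
Signal value of each region (vertical log axis) at its distance from the 5′ end of bcat-1 (left) and gdh-1 (right), in the pooled list, replicate 1 and replicate 2. Circles are regions assigned to the gene, open squares the 2 IDR regions within 1 kb past the 3′ end of gdh-1 (drawn at the pooled summit), triangles CACGTG and grey the gene; the bcat-1 region at 4996 bp upstream is the highest in all 3 panels on the left, and on the right the highest points are the squares at 3267 bp.

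The distal region of bcat-1 (12872328 to 12872635) had a signal of 240.3 in the pooled and IDR lists, 65.9 in replicate 1 and 173.9 in replicate 2. The signal value is the peak caller's score, so it is read within each list, and the region ranked 10 of 15898 in replicate 1 and 13 of 30000 in replicate 2. Its summits in the replicates lay 2 and 9 bp from the pooled summit. It stood among the highest regions of each list, at 37.7% of the list's maximum in replicate 1 and 47.1% in replicate 2. In the IDR list the next higher region, rank 11 with a signal of 243.3, lay nearest to Y43F8B.2, and the next lower, rank 13 with 229.7, nearest to mdl-1.

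The distal summit was in sequence annotated as intergenic. The nearest protein-coding 5′ end was that of bcat-1, at 4996 bp, and the next was that of T14G8.4, at 8588 bp on the other side, a gene on the minus strand that likewise has the region upstream of it. The closest protein-coding gene on the upstream side, T14G8.3, ends 7454 bp before bcat-1 and runs the same way. The span that assigned this summit to bcat-1 also assigned it to T14G8.4 and T14G8.6. Which gene, if any, the region serves was not tested.

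The promoter region of bcat-1 (12876992 to 12877109) had a signal of 73.3 in the pooled and IDR lists, where it ranked 151. In replicate 1 its signal was 39.1 and its rank 26 of 15898, and in replicate 2 they were 34.03 and 434 of 30000. Both lists held it, and they differ in length and their depth is unknown. Both replicate lists overlapped 952 of the 1015 IDR regions. In 7 of the 952 (0.735%), this one included, the rank number in replicate 2 was more than 10 times that in replicate 1. Gaps of that size the other way were not counted, so the share with a gap in either direction is not known. They did occur, as at the amino acid gene gst-42 (rank 4601 in replicate 1 and 167 in replicate 2). Why the replicates differed here was not tested. As a share of the distal region's signal in the same list, it reached 59.4% in replicate 1, 19.6% in replicate 2 and 30.5% in the pooled list. At 118 bp it was narrow, a width reached or undercut by 15 of the 1015 IDR regions, this one included, whose median was 364 bp. It was assigned to bcat-1 alone, and the next nearest 5′ end was that of gpc-1, a G-protein gamma subunit gene, at 7934 bp.

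The remaining 11 pooled regions at bcat-1 were weaker, with signals from 5.78 to 20.7, all below the lowest IDR signal of 25.9. The highest of them lay 3645 bp upstream (20.7, rank 1501), 1513 bp upstream (20.5, rank 1524) and 616 bp inside the gene, in an intron (19.8, rank 1624). All 3 were overlapped in both replicates. Of the 13 pooled regions in all, 8 were overlapped in both replicate lists, 3 in replicate 2 only, 1 in replicate 1 only and 1 in neither. By protein-coding genes alone, summits of 8 were intergenic, 2 intronic and 3 exonic. Of the exonic ones, those at 9287 and 8009 bp upstream fell in exons of T14G8.3. The summits 1513 bp upstream and 616 bp inside the gene lay in the non-coding RNA genes K02A4.7 and K02A4.8. The region at 9287 bp, with a signal of 5.78, was the outermost one inside the span, and the next one out, at 10945 bp with 7.37, was not assigned.

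Against all protein-coding genes treated the same way, bcat-1 was near the top. Its highest pooled signal was above that of 99.9% of genes, with 18 genes higher, 7 of them on X. The median over all genes was 10.1. Its 13 pooled regions compare with a median of 3, and its 2 IDR summits with 10.7% of genes that had at least 1 (16.6% on X, 8.81% on IV) and 1.83% that had 2 or more. The rule that picked bcat-1 used the signal, so this standing follows from the choice. The genes whose highest signals in replicate 1, replicate 2 and the pooled list were most like its own, over 15623 genes listed in all 3, were ogt-1 and K04G7.1 (distance 0.20 on the log2 scale) and pqn-29 (0.30), all on chromosome III. The first 2 share 1 region, with signals of 58.7, 171.8 and 223.1 in those lists, whose nearest 5′ end is that of ogt-1, which encodes O-GlcNAc transferase.

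**Figure D2:**
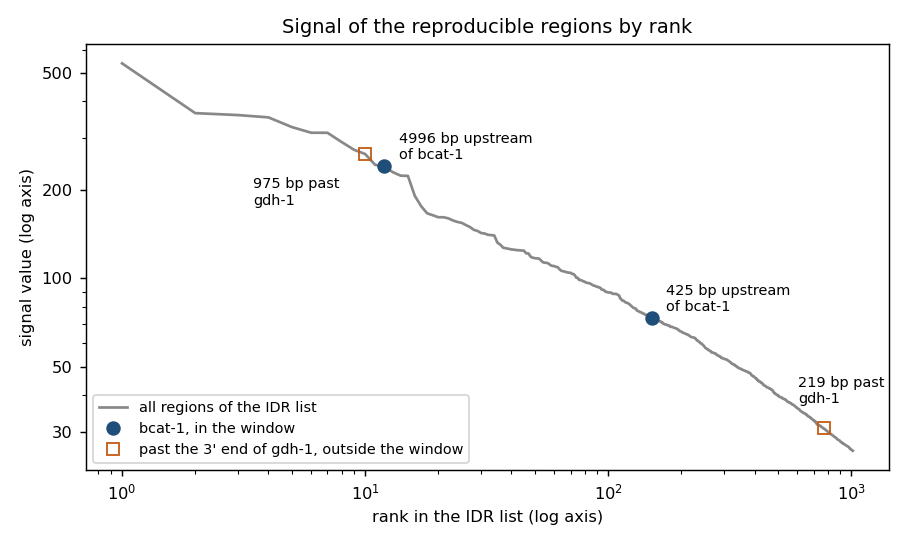
Signal value against rank for the 1015 regions of the IDR list, both on log axes. Filled circles are the bcat-1 regions at 4996 bp (rank 12) and 425 bp (rank 151) upstream, and open squares the regions 975 bp (rank 10) and 219 bp (rank 769) past the 3′ end of gdh-1.

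At gdh-1 the assigned regions were weak. Its promoter region (11952761 to 11953124, summit 306 bp upstream) had a signal of 11.6 and ranked 4757 of 30000 in the pooled list. In replicate 1 the matching region had a signal of 2.74 and ranked 10507 of 15898, and in replicate 2 it had 7.14 and ranked 10133 of 30000. Both replicates thus listed it, and in neither was it among the higher regions. Its pooled summit was also in the spans of hdl-1 and ZK829.3. The highest region assigned in replicate 1 was another one, with a signal of 4.28 and rank 4490, 1988 bp upstream in an intron of the T-box gene tbx-36, and it overlapped no pooled region assigned to gdh-1.

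The other 3 pooled regions at gdh-1 lay 9, 987 and 5743 bp upstream, with signals of 7.67, 5.21 and 5.54. The last was in an exon of hdl-1, nearest to the 5′ end of ZK829.3, and none of the 3 was overlapped in replicate 1. The next region out, 12395 bp upstream with a signal of 5.66, was not assigned. The highest pooled signal at gdh-1 was above that of 61.1% of genes, and in replicate 2 above that of 35.2%. The genes most like it by the same measure were cdt-2, irld-14 and T01C3.11 (distance 0.07), which share 1 region on chromosome V.

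Past the 3′ end of gdh-1 lay 2 IDR regions, which were looked at after their values were seen. The higher one (11956359 to 11956699, summit 975 bp past the end) had a signal of 264.9 in the IDR list, 46.3 in replicate 1 and 218.1 in replicate 2. It ranked 10 in the IDR list, 17 in replicate 1 and 9 in replicate 2, with summits 10 and 0 bp from the pooled one. Both replicates thus placed it near the top of their lists, as they did the distal bcat-1 region. An IDR summit within 1 kb past the 3′ end was found at 0.816% of protein-coding genes, and 2 or more at 0.02%, which is 4 genes including gdh-1.

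That region lies between converging genes. Its summit was 3267 bp from the 5′ end of gdh-1, downstream of it, and 3288 bp from that of tgt-1, which runs on the minus strand towards gdh-1. The ends of the genes are 2005 bp apart. The non-coding RNA gene ZK829.13 covers the summit. By the span used for all genes, both regions past the 3′ end were assigned to hdl-1 alone. The other region (11955578 to 11955941, 219 bp past the end) had an IDR signal of 30.8 and rank 769, with 4.43 and rank 4149 in replicate 1 and 29.5 and rank 534 in replicate 2. The next nearest IDR summit before gdh-1 was 131116 bp away.

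An E-box lay near the summit of each of the 3 high regions. None lay near that of the gdh-1 promoter region or of the weaker IDR region past gdh-1. The distal bcat-1 region had its CACGTG at 12872521 to 12872526, 39.5 bp from the pooled summit, and at 37.5 and 48.5 bp from those of replicates 1 and 2. The promoter region had one at 12877011 to 12877016, 41.5 bp from the pooled summit, on its other side. The higher region past gdh-1 had one at 11956495 to 11956500, 18.5 bp from the summit. The weaker IDR region, 219 bp past gdh-1, had none within 100 bp, and that same copy was its nearest, 737.5 bp away. The gdh-1 promoter window had none, and the nearest to its pooled summit was 1803.5 bp away. CACGTG was within 100 bp of the summit in 29.6% of IDR regions and 5.40% of pooled regions, and in 4.23% of promoter windows of the same length centred 100 bp before the 5′ end. E-box content was part of what was known when the genes were chosen.

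Of the 8 copies of CACGTG in the span of bcat-1, 3 had a pooled summit within 100 bp. Of 17729 copies in the genome, the windows of all pooled regions held 1688 and those of IDR regions 334. A copy in overlapping windows may be counted more than once there. The 8 copies at bcat-1 compare with a median of 2 over all genes, and 2 of the 8 lay within 100 bp of an IDR summit. Another, in the intron at 12878055 to 12878060, lay 38.5 bp from the pooled summit 616 bp inside the gene, whose signal was 19.8. The other 5 lay 193.5 to 895.5 bp from the nearest pooled summit, among them the copy 151 bp before the 5′ end. Of these 5, the copy 6948 bp upstream lay 23.5 bp from a weak summit of replicate 1 (3.32), and the copy 1171 bp upstream lay 70.5 bp from a weak summit of replicate 2 (5.11). At gdh-1 there were 2 copies, both over 100 bp from any pooled summit, in an exon of hdl-1 and an intron of tbx-36.

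The bases beside the E-box were shared by copies with and without a high region. Read as 8 bases with reverse complements merged, the distal bcat-1 copy and the one past gdh-1 were CCACGTGG, and the promoter copy was CCACGTGC. Of the 334 copies in IDR windows, 10.5% were CCACGTGG and 10.5% CCACGTGC, against 16.9% and 9.48% of all 17729 copies in the genome. The copy 6948 bp before bcat-1, with no high region near it, was CCACGTGC too. In 20 bp of plus strand, with CACGTG in capitals, the copies at 4959, 469 and 6948 bp before bcat-1 and the one past gdh-1 read as follows.
bcat-1, 4959: tgggggcCACGTGggggccc
bcat-1, 469: ctctcccCACGTGcgcccgc
bcat-1, 6948: gttgaacCACGTGctgaata
gdh-1, past the 3′ end: agagaccCACGTGggtgaga

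Of the 5 other motifs searched on both strands, GAGAGA had 6 matches in the distal bcat-1 window, all as TCTCTC on the printed strand and some of them overlapping, and 1 in the window past gdh-1. It was in 57.4% of IDR windows, 15.8% of pooled windows and 16.3% of promoters. TGACGT had 2 overlapping matches in the distal window, 1 on each strand (10.7% of IDR windows and 6.93% of promoters). GGCGGG had 1 match in the bcat-1 promoter window (10.05% and 4.84%). CACGCG (15.96% and 3.41%) and CTGCGTC (22.6% and 3.25%) matched in none of the 4 windows. The gdh-1 promoter window matched none of the 6 motifs. The GC content of that window was 49.3%, close to the 50.7% and 53.7% of the distal and promoter windows of bcat-1 and above the 46.3% of the one past gdh-1.

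Other genes of amino acid breakdown were examined as a list of 70 gene names, of which 68 matched the annotation. An IDR summit lay in the gene or within 10 kb of its 5′ end for 26 of the 68 (38.2%), against 10.7% of all protein-coding genes, and in the promoter window for 13 (19.1%), against 2.52%. The median of the highest pooled signal was 20.6 over the list and 10.1 over all genes. Without bcat-1 and gdh-1 the count was 25 of 66. The list was chosen with earlier results of these data known, so its shares here may follow from the choice. No test of the list was made. Of the 26 genes, 10 were on X, as were 18 of the 68 (26.5%). Over all genes, X held 2731 of 19973, and 453 of the 2138 with an IDR summit. The list thus held a larger share of X genes than the genome, and 16.6% of X genes had an IDR summit. In 18 of the 26, the listed gene itself had the nearest 5′ end to its highest summit. CACGTG lay within 100 bp of that summit in 14 (53.8%), against 29.6% of IDR regions.

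**Figure D3:**
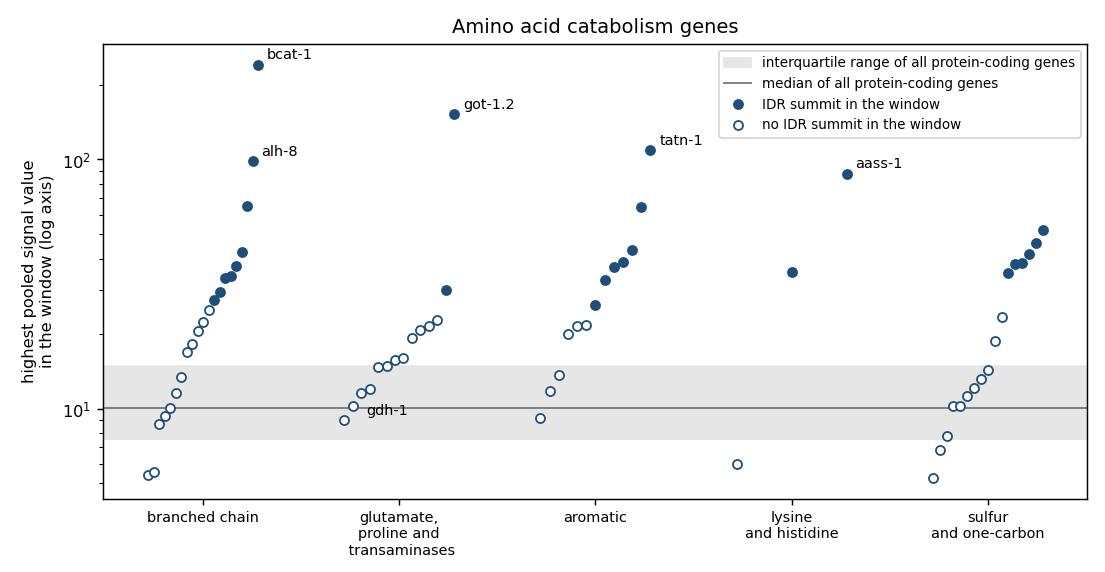
Highest pooled signal value in the span of each of 68 amino acid catabolism genes (log axis), by group. Filled circles have an IDR summit in the span and open circles have none; the line and band are the median (10.1) and the interquartile range (7.58 to 14.8) of all protein-coding genes, and bcat-1 is the highest point at 240.3.

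In the branched-chain group, 9 of 21 genes (42.9%) had an IDR summit, against 10.7% of all protein-coding genes. After bcat-1, the highest signals were at alh-8 (98.6), which encodes the methylmalonate-semialdehyde dehydrogenase of valine breakdown, with a summit 370 bp upstream, and at acdh-9 (65.1), an acyl-CoA dehydrogenase gene, 84 bp upstream. Both had a CACGTG. The summit at hphd-1 (42.5), a hydroxyacid-oxoacid transhydrogenase gene, was not listed in replicate 1. That at dbt-1 (37.3), which encodes the transacylase subunit of the branched-chain ketoacid dehydrogenase, ranked 7945 in replicate 1 and 559 in replicate 2, and that at hach-1 (34.0), a hydroxyacyl-CoA hydrolase gene, lay nearer to F09F7.6. The genes for the other subunits of that dehydrogenase were looked up after their values were seen. Of these, dld-1, whose product also serves other dehydrogenases, had an IDR summit 272 bp upstream (33.5), and bckd-1A and bckd-1B had none, with highest pooled signals of 16.8 and 10.02.

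In the group of glutamate, proline and transaminase genes, which holds gdh-1, none had an IDR summit in the promoter window, against 2.52% of all protein-coding genes. In the whole span 2 of 14 had one (14.3%), near the 10.7% of all protein-coding genes. The highest was at got-1.2, an aspartate aminotransferase gene, with a signal of 151.6, ranks of 24 and 26 in replicates 1 and 2 and no CACGTG, but its summit, 3930 bp upstream, was nearest to the 5′ end of aak-2, which encodes a catalytic subunit of AMP-activated protein kinase. Among the 13 aromatic genes 7 had an IDR summit in the span (53.8%, against the same 10.7%). They were led by tatn-1 (109.1), the tyrosine aminotransferase gene, with 3 IDR summits and the highest 380 bp upstream. Then came gst-42 (64.3), for maleylacetoacetate isomerase, hpd-1 (43.4), for hydroxyphenylpyruvate dioxygenase, pah-1 (38.9), for phenylalanine hydroxylase, and tdo-2 (37.1), for tryptophan dioxygenase. The summits of pah-1 and tdo-2 were nearest to nsph-1.1 and C28H8.2. In replicates 1 and 2 the summits ranked 4601 and 167 at gst-42 and 152 and 764 at hpd-1. They ranked 342 and 695 at pah-1 and 1171 and 657 at tdo-2.

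Of 17 sulfur and one-carbon genes, 6 (35.3%) had an IDR summit, against 10.7% of all protein-coding genes. The highest signals were at cdo-1 (51.99), the cysteine dioxygenase gene, and cth-2 (46.02), for cystathionine gamma-lyase. The others were mel-32 (41.6), for serine hydroxymethyltransferase, ethe-1 (38.5), for persulfide dioxygenase, suox-1 (37.9), for sulfite oxidase, and cbs-1 (34.9), for cystathionine beta-synthase. Of these 4, suox-1 alone was nearest to its own summit. In replicates 1 and 2 the summits ranked 3852 and 518 at mel-32 and 712 and 595 at ethe-1. They ranked 8082 and 530 at suox-1 and 1699 and 551 at cbs-1. Of 3 lysine and histidine genes, 2 had one (66.7%, against the same 10.7%). They were aass-1 (87.7), for the first enzyme of lysine breakdown, and haly-1 (35.4), for histidine ammonia-lyase. The haly-1 summit was nearest to suca-1. The distal bcat-1 region thus had the highest signal of any region assigned to a listed gene. With no IDR summit, gdh-1 was among 42 of the 68 listed genes, and over all protein-coding genes 17835 of 19973 had none.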

How the data were processed

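Regions were read from the deposited ce11 lists of ChIP-seq in L3 larvae. A replicate list was made from that replicate's alignments and those of a control, and the pooled list likewise from both, per the deposited file descriptions. The IDR list was derived from those 3. Not given in the sources used here were aligner, caller, thresholds, IDR cutoff and depth. Each region's signal value is the authors' deposited score, with no stated scale, and was used to rank and describe regions within a list. Ranks in lists of different lengths were set side by side. They were compared only for gaps of more than 10 times. IDR regions with the larger rank number in replicate 2 were counted, and those with it in replicate 1 were not.

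A summit is the start of a region plus its deposited offset, written 1-based. Genes were the 19973 protein-coding genes of Ensembl release 115 (WBcel235, which is ce11), and sequence was that of the RefSeq copy of WBcel235, in which every listed region lay within its chromosome. The window of a gene was its body plus 10000 bp before its 5′ end. A promoter window ran from 1000 bp before to 200 bp after the 5′ end. Regions in 2 lists matched when they overlapped by at least 1 bp. The 6 motifs were searched on both strands in the summit base and 100 bp on either side. The ce10 lists were not used. The script was tested on simulated summits and motifs. Calculations used Python 3.11.15, numpy 2.4.6 and pandas 2.3.3, and figures matplotlib 3.10.9.

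The genes, the list and the motifs were chosen with earlier results of these data known, and the rule for the genes used the values reported, so no test was run. Named genes were bcat-1, gdh-1 and their neighbours, the 20 listed genes of highest IDR signal, and the 3 genes most like each of bcat-1 and gdh-1. Genes named as nearest to a region or sharing it, and dld-1, bckd-1A and bckd-1B, were named after the values were seen. Alternatives were other windows, fewer regions, either replicate alone and a stricter overlap.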

Additional observations from a re-analysis of the deposited data

How the results depend on the processing

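Values with no test were set against the spread between replicates, and counts against 1.5 times the reported count. The rank of the highest region at bcat-1 stayed at 12 with 5 kb or 20 kb upstream. With 1 replicate left out it was 10 of 15898 in replicate 1 and 13 of 30000 in replicate 2. Its distance to CACGTG then ran from 37.5 to 48.5 bp. The number of pooled regions there fell to 7 with the 5000 highest pooled regions and to 2 with as many as the IDR list holds, and ran from 9 to 12 with 1 replicate left out. At gdh-1 the rank was 4490 of 15898 without replicate 2 and 10133 of 30000 without replicate 1, in lists of different length. The distance to CACGTG ran from 121.5 to 1803.5 bp, because another region was highest in replicate 1. With 20 kb upstream the rank was 1900. The number of regions ran from 2 to 5 with 1 replicate left out. That number was 7 with 20 kb upstream, 1 with the 5000 highest regions and 0 with as many as the IDR list holds. With 1 kb past the 3′ end included, a choice made after the data were seen, the rank at gdh-1 became 10. Protein-coding genes with an IDR summit numbered 1399 with 5 kb upstream (7.004%), 3542 with 20 kb (17.7%) and 504 with the promoter window alone (2.52%). They numbered 1099 with the 507 regions of higher signal (5.50%) and 757 with each summit given to the nearest 5′ end (3.79%). Listed genes numbered 26 (38.2%), 33 (48.5%), 13 (19.1%), 12 (17.6%) and 18 (26.5%) in those settings. The IDR list needs both replicates, so with 1 left out, regions of the other replicate's own list stood in for it. Genes with a summit of those regions numbered from 2099 to 2165, and listed genes from 18 to 27. The bcat-1 regions at 4996 and 425 bp upstream and the gdh-1 promoter region all had overlaps in both replicates. With the stricter overlap, in which the shared stretch had to cover at least 50% of each region, 1 of the 3 did; the bcat-1 regions were 308 and 118 bp wide in the pooled list and had other widths in the replicates. The depth of the libraries is unknown, so its effect on these values was not tested. No paired analysis was possible because there is 1 group of samples.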
